A study of Gallus gallus with 14 samples.

Results

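Of the 12844 EST clones on the chicken arrays, 5 are described here, the chemokine and immune effector clones that the study's supplementary list of DKO-R genes names as CXCR4 (clone dkfz426_3j23r1), a CCL17-like chemokine (pat.pk0060.e3), NK-lysin (pat.pk0070.c10), CD274 (pat.pk0032.f4) and NFKBIE (pat.pk0029.c6). They were matched by clone name, ignoring a closing f or .f, and all were found. Names were taken from that list alone. The list was drawn from these same samples as higher in DKO-R, so a direction of DKO-R over DKO-S in them is not independent evidence.

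Hybridised to the 14 arrays were 12 RNA extracts of 3 lines, each line having been grown as culture A and as culture B, in the presence of doxycycline (DOX) or in its absence. DKO-S and DKO-R both lack the endogenous clathrin heavy chain and express it instead from a transgene under a Tet-Off promoter, shut off by DOX, and DKO-R was derived from DKO-S. The third line, DT40, is the chicken pre B-cell-line both came from and retains its own clathrin genes. Each of 7 pairs of extracts was hybridised on 2 arrays with Cy3 and Cy5 exchanged. In 1 pair, on the direct arrays, DKO-R was set against DKO-S, both as culture A without DOX. In the 6 others, on the DOX arrays, a culture with DOX was set against the same culture of its line without it. The array methods and labels give neither dose nor time of DOX, and each line is a single line, so line and clonal history cannot be told apart. No clone is named as clathrin in the list, so its repression was not checked here, nor could most B-cell markers be.

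CXCR4 is the receptor for the chemokine SDF-1, and signals through G proteins to survival and migration pathways in lymphocytes and their precursors. CCL17 is a secreted CC chemokine that attracts T cells in mammals. NK-lysin is a membrane-lysing antimicrobial peptide of cytotoxic lymphocytes. CD274 (PD-L1) is a surface ligand of the inhibitory receptor PD-1, and NFKBIE encodes an inhibitor that holds NF-kappaB in the cytoplasm.

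On 12 of the 14 arrays, 55.1% to 72.1% of the clone spots had a BlueFuse confidence, a quality score between 0 and 1, of 0.30 or more and were kept. The other 2, weak arrays below, kept 2.13% and 22.7%. Both are of DKO-S, culture A with its DOX extract in Cy5 and culture B with its DOX extract in Cy3. On the 12 arrays the mean over all spots of a clone was 4.44 to 50.6 times the median blank spot in Cy3. In Cy5 it was 7.48 to 153 times. Single spots could be dimmer, as those of CXCR4 below. Some positions named blank were bright, with a 95th percentile between 6083 and 39523, so their median was used. On the weak culture A array, where no spot of the 5 was kept, their mean Cy5 signal was 0.603 to 1.67 times the median blank. The CXCR4 clone has 4 spots, the others 2 each.

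The direct arrays ask whether a transcript differs between DKO-R and DKO-S, and both dye orientations gave opposite answers for all 5 clones. CXCR4 was 2.08 higher in DKO-R on the log2 scale when DKO-R was in Cy5, and -2.62 relative to DKO-S when DKO-R was in Cy3. The CCL17-like clone gave 2.43 where Cy5 held DKO-R and -2.31 where Cy3 held it. NK-lysin gave 2.10 where Cy5 held DKO-R and -2.28 where Cy3 held it. In each clone the channel in Cy5 was the brighter one, whichever line it held. CD274 gave 3.02 where Cy5 held DKO-R and -3.08 where Cy3 held it. NFKBIE gave 3.16 where Cy5 held DKO-R and -3.18 where Cy3 held it. Opposite signs in both orientations were found in 55.3% of the 7238 clones measured on both arrays, so the disagreement itself is common. The size is not, since only 39 of these clones were over 4-fold brighter in Cy5 on both arrays, and the 5 are among them. The list was drawn from these same samples, so their place among the 39 is not independent evidence.

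Averaged over both orientations, where a dye effect equal on both arrays cancels, no clone of the 5 differed between DKO-R and DKO-S beyond the spread of the pairs. A dye effect that differs between both arrays of this pair cannot be told from a difference between lines. The log2 ratio of DKO-R over DKO-S was -0.27 ± 0.23 for CXCR4 (SE, 1 pair of extracts, 95% interval -0.80 to 0.26, adjusted p = 0.790 by limma with Benjamini-Hochberg adjustment over 5827 clones). It was 0.06 ± 0.21 for the CCL17-like clone (interval -0.43 to 0.55, adjusted p = 0.979). It was -0.09 ± 0.32 for NK-lysin, -0.03 ± 0.39 for CD274 and -0.01 ± 0.54 for NFKBIE, with adjusted p between 0.980 and 0.998. The intervals of NK-lysin (-0.82 to 0.64), CD274 (-0.92 to 0.86) and NFKBIE (-1.25 to 1.22) leave room for larger differences than those of the chemokine receptor and the chemokine. At the threshold of 0.15, the study's false discovery rate, 0.137% of all clones passed (8, all higher in DKO-R, or 29 with 22 higher when each printed block was centred on its own median). That count was 0 without any 1 pair of DT40 or DKO-R, and 30 without either pair of DKO-S. A single pair stands behind this comparison, and its spread is borrowed from the DOX pairs.

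The direction between DKO-R and DKO-S is not settled, since the direct and the DOX arrays gave opposite signs for most clones called on the direct arrays. The clone of immunoglobulin J chain, the peptide that joins polymeric immunoglobulin in B-lineage cells, had a log2 ratio of DKO-R over DKO-S of 2.89 on the direct arrays, but -2.35 without DOX and -2.52 with DOX in the separate channels of the DOX arrays. Of 7 clones past the threshold on the direct arrays and measured in both ways, 6 had the opposite sign in the separate channels without DOX, and across 5638 clones Pearson's r between both was -0.23. Which set, if either, carries exchanged line labels is not known. If the lines of the direct arrays are exchanged, the averages of the 5 clones and their intervals turn sign, each interval still holding 0, and the 8 calls are lower in DKO-R. If those of the DOX arrays are exchanged, every DOX response, level and line difference given here for DKO-R from those arrays, the differences from DT40 included, belongs to DKO-S, and those given for DKO-S belong to DKO-R. The sign of the Cy5 differences does not depend on the lines.

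**Figure D1:**
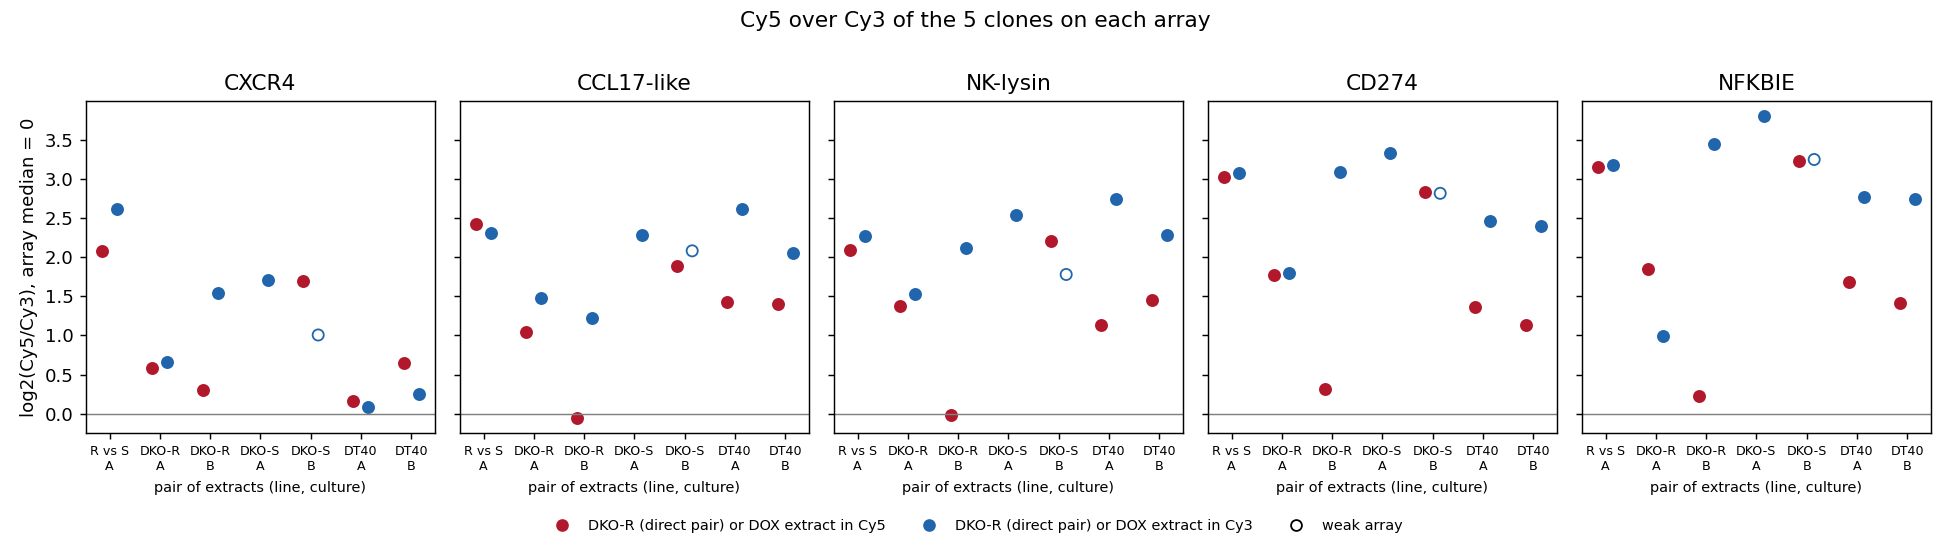
Each point is log2(Cy5/Cy3) of a clone on 1 array, with the array median at 0 and the pairs of extracts along the horizontal axis (R vs S is the direct pair). Red points have the DKO-R or the DOX extract in Cy5, blue points have it in Cy3, and open points are a weak array. On the 12 other arrays CXCR4, CD274 and NFKBIE were above 0 on all, and the CCL17-like clone and NK-lysin on 11.

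The DOX arrays of DT40 and DKO-R carry the same line in both channels, so they show the brightness in Cy5 apart from any difference between lines. All 5 clones were brighter in Cy5 there, and each passed the test. They were listed from samples that include the direct pair, where all 5 are among the 39 clones over 4-fold brighter in Cy5 on both arrays. Their choice may thus not be independent of brightness in Cy5, and the p-values do not allow for it. NFKBIE was 1.89 ± 0.35 higher in Cy5 on the log2 scale (SD, n = 4 pairs, adjusted p = 4.5e-06 by limma). CD274 was 1.79 ± 0.09 higher (adjusted p = 1.3e-06). NK-lysin was 1.58 ± 0.41 higher (adjusted p = 3.2e-05), and the CCL17-like clone 1.40 ± 0.63 (adjusted p = 0.00064). CXCR4 had the lowest value, 0.53 ± 0.33 (adjusted p = 0.035). Its call was lost without the DKO-R pair of culture A (0.50, adjusted p = 0.147) or of culture B (0.40, adjusted p = 0.137), in the deposited log2 table (0.60, adjusted p = 0.059) and without the confidence filter (0.40, adjusted p = 0.082). At the threshold of 0.05, 3.84% of the 7896 clones tested passed, 268 of the 303 being brighter in Cy5.

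By pair, the Cy5 difference lay further apart between the cultures of DKO-R than between those of DT40 in the CCL17-like clone, NK-lysin and NFKBIE, and not in CXCR4 or CD274. CXCR4 had 0.62 and 0.92 in DKO-R cultures A and B, and 0.13 and 0.45 in DT40. The CCL17-like clone had 1.26 and 0.59 in DKO-R and 2.02 and 1.73 in DT40. NK-lysin had 1.46 and 1.05 in DKO-R and 1.94 and 1.88 in DT40. CD274 had 1.79 and 1.71 in DKO-R and 1.92 and 1.77 in DT40. NFKBIE had 1.42 and 1.84 in DKO-R and 2.23 and 2.09 in DT40. In both cultures the value was thus higher in DKO-R than in DT40 for CXCR4 and lower for the 4 other clones, a difference that was not tested.

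The Cy5 difference of every one of the 5 clones was larger on the direct arrays than the mean of the DOX arrays of DT40 and DKO-R. The DKO-S pairs, which both include a weak array, were left out of that mean. The DKO-S pair of culture B had 3.24 for NFKBIE, 2.83 for CD274, 1.99 each for NK-lysin and the CCL17-like clone, and 1.35 for CXCR4. Each lies above that mean, so a larger Cy5 difference was not particular to the direct arrays. The clones were listed from samples that include the direct pair. Their choice is thus not independent of the values of the direct arrays, and the p-values below do not allow for it. CXCR4 had 2.35 on the direct arrays, which is 1.82 ± 0.27 more (SE, adjusted p = 0.036 by limma, threshold 0.05). CD274 had 3.05, which is 1.26 ± 0.21 more (adjusted p = 0.039). NFKBIE, with 3.17, had 1.28 ± 0.28 more but missed the threshold (adjusted p = 0.092), as did the CCL17-like clone (0.97 ± 0.40, adjusted p = 0.586) and NK-lysin (0.61 ± 0.30, adjusted p = 0.697). Of 6601 clones 0.197% passed, all 13 of them brighter in Cy5 on the direct arrays. Most other immune and CXCR4 signalling clones of the list, described further below, also had a larger Cy5 difference on the direct arrays. The calls of CXCR4 and CD274 were lost without either DKO-R pair (adjusted p 0.072 and 0.098 for CXCR4, 0.086 and 0.121 for CD274, without culture A and without culture B) and in the deposited log2 table (adjusted p = 0.068 and 0.059). That of CXCR4 was also lost without the confidence filter (0.93, adjusted p = 0.169). NFKBIE passed without either DT40 pair (adjusted p = 0.038 and 0.037) and at a confidence of 0.60 (adjusted p = 0.026).

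The CXCR4 clone was printed in 2 places, and its spots do not give the same picture. The pair of spots in printed block 21 was kept on each of the 12 arrays, with a median confidence of 0.698. Its log2(Cy5/Cy3) ran from -0.07 to 2.62, with a median of 0.84, and was above 0 on 11 arrays. The pair in block 29 had a median confidence of 0.313, with 11 of 24 spot readings kept. Its log2(Cy5/Cy3) ran from -0.30 to 0.62 with a median of 0.18, and was above 0 on 8 arrays. In Cy5 the median intensity was 3870 in block 21 and 814 in block 29, and in Cy3 it was 2732 in block 21 and 1448 in block 29.

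On the direct arrays block 29 was below the confidence limit on both, so the CXCR4 values of those arrays are those of block 21 alone, while most DOX arrays average both blocks. With DKO-R in Cy5 the direct arrays gave log2(Cy5/Cy3) of 2.08 in block 21 and 0.11 in block 29, and where Cy3 held DKO-R they gave 2.62 in block 21 and 0.62 in block 29. In Cy5, block 29 read 396 and 694 on these arrays, in that order, and block 21 read 5186 and 6642. The median blank in Cy5 was 220 and 238, so the ratios of block 29 come from Cy5 signal not far above blank. Taken from block 29 alone without the filter, the Cy5 difference of CXCR4 was 0.09 on the DOX arrays (adjusted p = 0.721) and 0.27 more on the direct arrays (adjusted p = 0.912), so both calls rest on block 21. Among 267 clones printed in 2 blocks with 2 spots each, the blocks differed in log2(Cy5/Cy3) on the direct arrays by a median of 0.32, and by 1.98 for CXCR4, a size exceeded by 7 clones. The deposited log2 table holds 1 row of this clone, which falls in block 21.

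**Figure D2:**
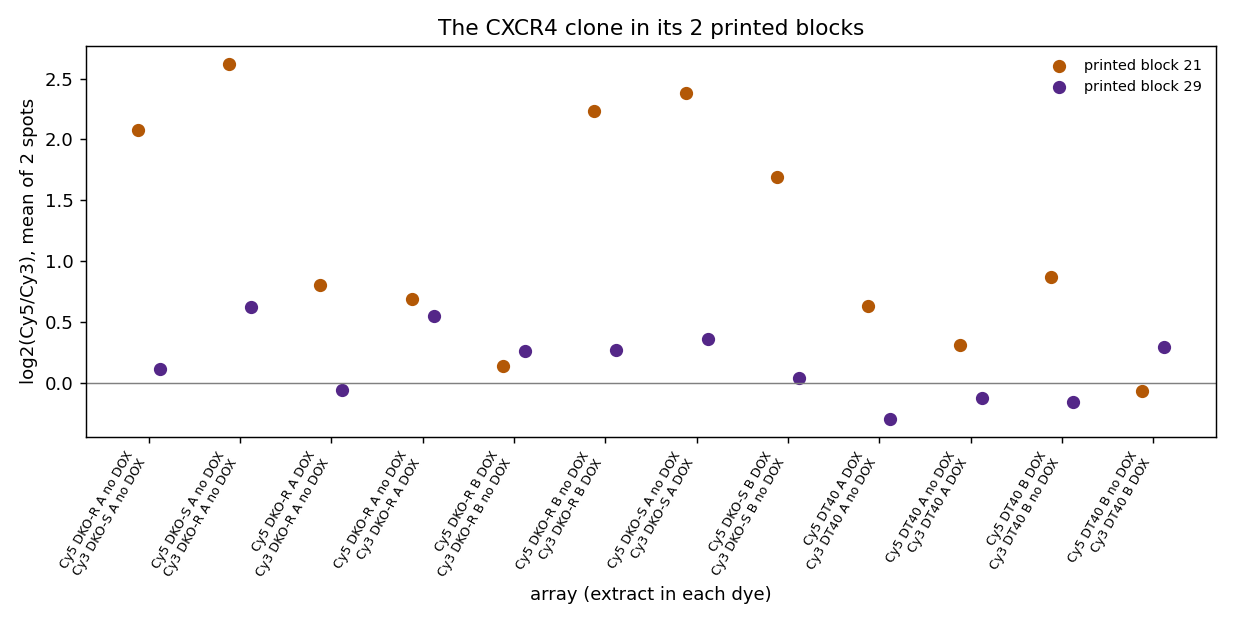
The CXCR4 clone on the 12 arrays that are not weak, as log2(Cy5/Cy3) with the array median at 0, each point the mean of the 2 spots of a printed block, kept or not. Block 21 lies above block 29 on 10 of the 12 arrays, and by the widest margins on both direct arrays, both arrays of DKO-S and the array of DKO-R culture B with the DOX extract in Cy3.

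The DOX arrays of DKO-R ask whether the clones respond when clathrin is repressed, and those of DT40 give the response to DOX where clathrin is not regulated. In DKO-R the ratios of DOX over no DOX were below 0 for all 5 clones on average, though none passed. In culture B they were -0.63 for CXCR4, -0.64 for the CCL17-like clone, -1.07 for NK-lysin, -1.39 for CD274 and -1.61 for NFKBIE. In culture A they were -0.04 for CXCR4, -0.22 for the CCL17-like clone, -0.07 for NK-lysin, -0.01 for CD274 and 0.43 for NFKBIE. The cultures of DKO-R thus disagreed, with the low averages resting on culture B. In that culture the array with the DOX extract in Cy3 had Cy5 excesses of 1.22 to 3.45 and the array with the DOX extract in Cy5 had -0.05 to 0.31.

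The averages of both DKO-R pairs were -0.33 ± 0.16 for CXCR4 (SE, adjusted p = 0.629 by limma), -0.43 ± 0.15 for the CCL17-like clone (adjusted p = 0.595) and -0.57 ± 0.22 for NK-lysin (adjusted p = 0.609). They were -0.70 ± 0.27 for CD274 (adjusted p = 0.609) and -0.59 ± 0.38 for NFKBIE (adjusted p = 0.690). Of the 6489 clones tested 0% passed at 0.05, with 526 at an unadjusted p under 0.05, 3 of the 5 clones among them.

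In DT40 the averages of both orientations were closer to each other between cultures, but the single orientations disagreed. Opposite signs of DOX over no DOX were found for all 5 clones in both DT40 pairs (56% of all clones in each). The same held in the DKO-R pair of culture A (55.1% of all clones), and for 3 of the 5 in that of culture B (49.4%). The ratio of DOX over no DOX was -0.59 and -0.33 for the CCL17-like clone in cultures A and B, -0.81 and -0.42 for NK-lysin, -0.55 and -0.63 for CD274, and -0.54 and -0.67 for NFKBIE. CXCR4 differed from these with 0.04 and 0.20. The averages were 0.12 ± 0.16 for CXCR4 (SE, adjusted p = 0.997), -0.46 ± 0.15 for the CCL17-like clone (adjusted p = 0.759), -0.61 ± 0.22 for NK-lysin (adjusted p = 0.794), -0.59 ± 0.27 for CD274 (adjusted p = 0.852) and -0.61 ± 0.38 for NFKBIE (adjusted p = 0.966), all by limma. Here too 0% of the clones passed (6488 tested, 392 at an unadjusted p under 0.05, 2 of the 5 clones among them).

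The response of DKO-R minus that of DT40 was -0.45 ± 0.23 for CXCR4 (SE, 95% interval -0.98 to 0.08, adjusted p = 0.858 by limma). For the 4 others it lay between -0.11 and 0.04, with adjusted p of 0.979 or more. The intervals ran from -0.46 to 0.53 for the CCL17-like clone, from -0.69 to 0.77 for NK-lysin, from -0.996 to 0.777 for CD274 and from -1.22 to 1.25 for NFKBIE. Of 6484 clones 0% passed, with 327 at an unadjusted p under 0.05 and none of the 5 among them. The DKO-S response could not be tested for these clones, because no spot of theirs was kept on the weak array of culture A. The DKO-S pair of culture B, which includes the other weak array, gave 0.34 for CXCR4, -0.09 for the CCL17-like clone, 0.21 for NK-lysin, 0.01 for CD274 and -0.01 for NFKBIE. On that weak array the DOX extract, in Cy3, read 1.26 (CXCR4) to 2.85 (CD274) times the median blank. Each clone but CD274 kept only 1 spot there, so these pair values rest on DOX signal near blank.

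**Figure D3:**
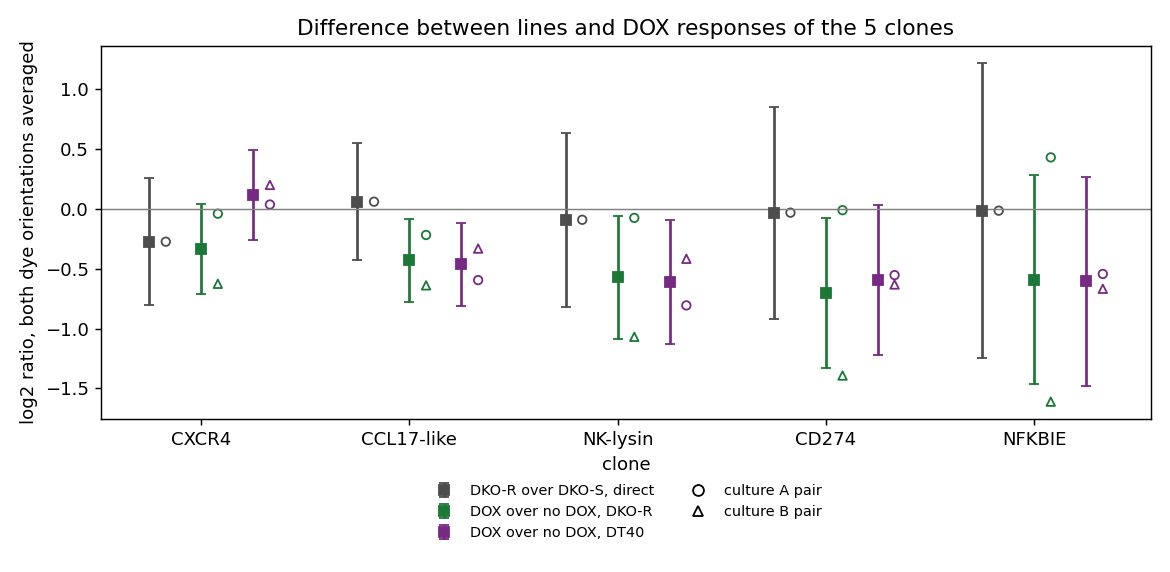
Squares are the limma estimates of the log2 ratio with 95% intervals, with both dye orientations averaged, for DKO-R over DKO-S on the direct arrays and for DOX over no DOX in DKO-R and in DT40. Open symbols are the pairs of culture A (circles) and culture B (triangles). The direct averages lie between -0.27 and 0.06, and the DKO-R responses spread widest between cultures in CD274 and NFKBIE.

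Levels in single extracts came from the separate channels of the DOX arrays without the weak arrays, after removing each clone's mean Cy5 difference on the DT40 and DKO-R arrays. The lines share no DOX array, so line and set of arrays cannot be told apart. Against DT40 without DOX, 21.3% of the 7307 clones passed for DKO-R and 19.8% for DKO-S. Of the 5 clones 1 passed for DKO-R, the CCL17-like clone, a share near that of all clones, and 0 passed for DKO-S. Without DOX its log2 level was 11.60 and 12.32 in DKO-R cultures A and B, 12.19 and 11.35 in DKO-S, and 11.14 and 11.11 in DT40. With DOX it was 11.36 and 11.66 in DKO-R, 11.34 and 11.80 in DKO-S, and 10.52 and 10.79 in DT40. The DT40 extracts thus lay below all extracts of both other lines. Without DOX the level was 0.83 ± 0.33 higher in DKO-R than in DT40 (SE, adjusted p = 0.137 by limma, threshold 0.15) and 0.64 ± 0.33 higher in DKO-S than in DT40 (adjusted p = 0.258). The first call was lost in each fit without 1 culture of DT40 or DKO-R (0.47 to 1.19, adjusted p 0.164 to 0.633) and when all DOX arrays entered as the mean of both dyes (0.82, adjusted p = 0.402).

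CXCR4 had levels of 11.02 and 11.74 in DKO-R without DOX (cultures A and B), 11.67 and 10.23 in DKO-S, and 11.19 and 11.60 in DT40. NK-lysin had 12.04 and 12.72 in DKO-R, 12.19 and 11.50 in DKO-S, and 12.19 and 12.30 in DT40. For both, the cultures of DKO-R and of DKO-S enclosed or overlapped those of DT40. CD274 had 12.36 and 13.51 in DKO-R, 13.27 and 12.04 in DKO-S, and 12.22 and 12.10 in DT40. NFKBIE had 12.71 and 13.59 in DKO-R, 13.10 and 11.47 in DKO-S, and 12.64 and 12.39 in DT40. By group mean the order was DKO-R, DKO-S, DT40 for the CCL17-like clone and CD274, DKO-R, DT40, DKO-S for NK-lysin and NFKBIE, and DT40, DKO-R, DKO-S for CXCR4, and apart from the CCL17-like clone in DKO-R against DT40 no tested difference passed. The DKO-S values moved without 1 DKO-S culture, where DKO-S without DOX is a single extract in a single dye, so only their size is given. Against DT40 without DOX, CXCR4 in DKO-S was -1.16 without culture A, while the CCL17-like clone was 1.07 and CD274 1.11 without culture B. CD274 in DKO-R was 0.77 over DT40 in the fit of all extracts (adjusted p = 0.341 by limma), and its side of the threshold changed without either DKO-S culture.

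DKO-R over DKO-S in these channels was above 0 for all 5 clones without DOX, and none passed. It was 0.86 ± 0.60 for NFKBIE, 0.54 ± 0.36 for NK-lysin, 0.43 ± 0.46 for CXCR4, 0.28 ± 0.48 for CD274 and 0.19 ± 0.33 for the CCL17-like clone (SE, adjusted p from 0.546 to 0.853 by limma), where 2.86% of all clones passed. The median over all clones was 0.10. With DOX the differences ran from -0.16 for CD274 to 0.53 for NFKBIE (adjusted p from 0.739 to 0.957), where 6.14% of all clones passed. These values depended on which DKO-S culture was left, again a single extract, so only their size is given. Without DKO-S culture A, CXCR4 was 1.15 higher in DKO-R and NFKBIE 1.67 higher. Without DKO-S culture B, CXCR4 was -0.29 relative to DKO-S and NFKBIE 0.047.

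Each DKO-S extract was left with 1 channel, and the DKO-S values moved with the dye. Without DOX culture A was read in Cy5 and culture B in Cy3, and the Cy5 extract was 0.69 to 1.63 higher in the 5 clones even after the Cy5 difference of the other lines had been removed. With DOX culture B was read in Cy5 and culture A in Cy3, and the Cy5 extract was 0.46 to 1.63 higher. The extract read in Cy5 was thus the higher one in all 5 clones, both where culture A and where culture B was in Cy5. This difference enters the residual spread behind every line comparison in these channels, DKO-R against DT40 included.

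The lines were also compared within 1 dye, without removing each clone's mean Cy5 difference. These levels still followed the normalisation of Cy5 against Cy3 on each array, so a level in 1 dye is not free of the other. In Cy5, DKO-R minus DKO-S of culture A without DOX, the extracts of the direct arrays, was below 0 for all 5 clones, from -1.09 for NFKBIE to -0.20 for NK-lysin, with -0.49 for CXCR4 (median over 8525 clones -0.11). In Cy3, the same difference in culture B without DOX was above 0 for all 5, from 1.55 for CXCR4 to 2.33 for NFKBIE (median over 7530 clones 0.12). With DOX it was -0.11 to 1.73 in culture A, read in Cy3, and -0.90 to 0.13 in culture B, read in Cy5. The comparisons with and without DOX of a culture share their arrays.

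**Figure D4:**
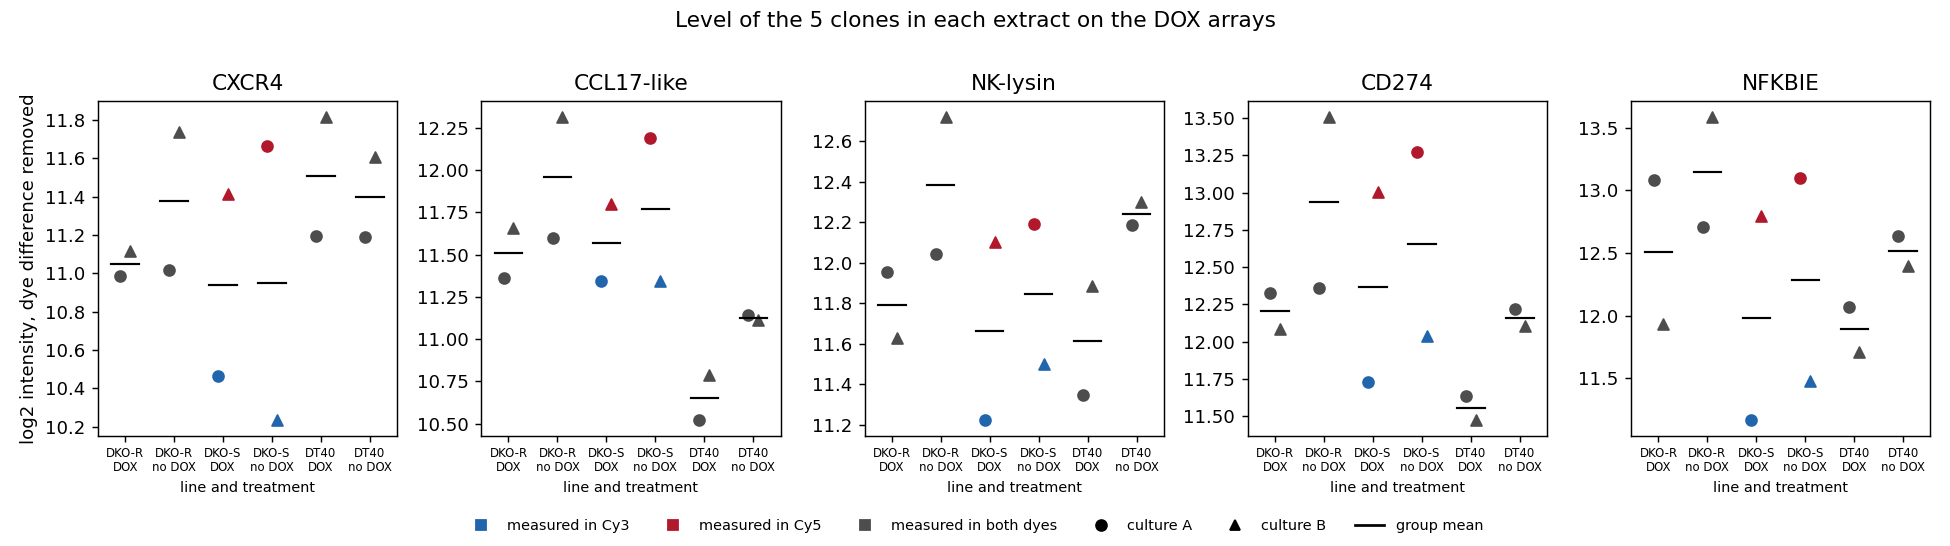
Dye-adjusted log2 intensity of each clone in the 12 extracts on the DOX arrays, with the group mean as a bar, circles for culture A and triangles for culture B. Grey extracts were read in both dyes, and the DKO-S extracts in Cy5 (red) or Cy3 (blue) alone, where the red points lie above the blue ones in every clone. Each panel has its own vertical scale.

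The other immune clones of the list are those of complement C4, immunoglobulin J chain, Gal-1 alpha (a beta-defensin), an LY6E-like antigen, avian thymic hormone and CD63. On the direct arrays, where 0.137% of all clones passed, 1 of these 6 did, J chain at 2.89 (adjusted p = 0.0026 by limma), with CD63, a tetraspanin, at -0.26 on the other end, an order that turns round if the lines are exchanged. On the DOX arrays of DT40 and DKO-R, where 3.84% of all clones passed, 5 of 6 were brighter in Cy5 past the threshold, from 0.11 for J chain, which did not pass, to 1.75 for avian thymic hormone, with a median of 0.85 against -0.01 over all clones. These clones come from the same list, so their choice too may not be independent of brightness in Cy5. The Cy5 difference was larger on the direct arrays than on these DOX arrays in 5 of 6. Past the threshold was 1, Gal-1 alpha with 1.49 more (adjusted p = 0.048 by limma), against 0.197% of all clones. An unadjusted p under 0.05 was found in 5 of 6, against 7.62% of all clones. When DKO-R was treated with DOX 0 of 6 passed, with values from -0.74 for avian thymic hormone to -0.17 for J chain. When DT40 was treated 0 of 6 passed, from -0.55 for the LY6E-like clone to 0.00 for J chain.

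The clones that the list sets with CXCR4 signalling are MAP2K3, MAP4K4, DUSP1, KIDINS220, ITGB5, actin-capping protein beta and Tara, kinases and a phosphatase of MAP kinase pathways, a scaffold, an integrin subunit and actin regulators. On the direct arrays 0 of these 7 passed, 1 having an unadjusted p under 0.05. They ran from -0.05 for Tara to 1.05 for MAP2K3 (adjusted p = 0.172 by limma), with a median of 0.05, and these signs too turn if the lines are exchanged. In the separate channels of the DOX arrays MAP2K3 had the opposite sign for DKO-R over DKO-S, -0.87 without DOX (adjusted p = 0.225 by limma) and -0.81 with DOX (adjusted p = 0.214). For DKO-R over DT40 without DOX it was -0.90 (adjusted p = 0.083 by limma). It was the 1 of 7 past the threshold of 0.15 there, against 21.3% of all clones. For DKO-S over DT40 1 of 7 passed, ITGB5 at -1.26 (adjusted p = 0.045 by limma), against 19.8% of all clones. In Cy5 over Cy3 on the DOX arrays, against 3.84% of all clones, 6 of 7 passed, from 0.25 for MAP2K3, which did not, to 1.81 for MAP4K4, with a median of 1.11. Here too the choice of the list may not be independent of brightness in Cy5. The Cy5 difference was larger on the direct arrays than on these DOX arrays in 6 of 7. There 0 of 7 passed, and 5 had an unadjusted p under 0.05, against 0.197% and 7.62% of all clones. When DKO-R was treated with DOX 0 of 7 passed, from -0.74 for KIDINS220 to -0.15 for actin-capping protein beta. When DT40 was treated 0 of 7 passed, from -0.45 for MAP4K4 to 0.08 for KIDINS220. MAP2K3 and J chain, whose direct ratios lay furthest from 0 in their lists, had the lowest Cy5 differences of these lists on the DOX arrays.

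The 39 clones over 4-fold brighter in Cy5 on both direct arrays came mostly from certain EST libraries. Clones whose names start with pat were 11.7% of those measured and 20 of the 39, and those starting with pgn1c were 6.95% and 12 of the 39. The ChEST clones were 62.2% of those measured and 2 of the 39. Of the 5 clones described here 4 are pat clones and 1, CXCR4, is a dkfz426 clone, of which 204 were measured and 4 were among the 39. Whether library, insert or printing moves with the brightness in Cy5 was not tested.

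Over the 12 extracts, levels of the CXCR4 clone correlated most with those of pat.pk0033.b9 (Pearson's r = 0.88), DT40subNB_5E6 (0.88) and pat.pk0057.e1 (0.87), among 7307 clones. Those closest to the CCL17-like clone were ChEST384A20, pat.pk0052.f3 and pat.pk0050.c7 (each 0.92). Those closest to NK-lysin were pgn1c.pk003.k2 (0.94), pat.pk0049.d1 and pat.pk0053.e6 (each 0.93). CD274 was closest to pat.pk0052.f3 (0.96), pat.pk0073.f7 (0.92) and CD63 (0.91), and NFKBIE to pat.pk0056.g2 (0.97), pgn1c.pk003.d3 and avian thymic hormone (each 0.95). Of these 15 places 13 were held by pat or pgn1c clones, which make up 18.2% of the clones. Among the 5, the closest were the CCL17-like clone and CD274 (r = 0.90) and NK-lysin and NFKBIE (0.85), and the least alike were CXCR4 and the CCL17-like clone (0.18). The extracts share arrays, lines and dyes, so these values describe the levels and carry no test.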

How the data were processed

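The 14 two-colour arrays were analysed from the spot intensity in Cy3 and Cy5 that the authors deposited, extracted with BlueFuse for Microarrays (version 1.1, build 2765) and not normalised. The deposited BlueFuse confidence is a fraction per spot. The labels, not the file headers, name channel 1 as Cy3 and channel 2 as Cy5. The authors also deposited a log2 table of Cy5 over Cy3, fused over spots and not turned for dye swaps, used as an alternative. Its rows were matched to spots by position (r 0.933 to 0.976 with the scanner values over the arrays), and the column medians ran from -0.31 to 0.23. Total RNA labelled is given as 20 µg in the methods and 2 µg in the labels.

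A confidence of 0.30 was required of a spot. Each array's median was subtracted from its log2(Cy5/Cy3), and a clone's value was the mean over its spots. Both orientations of a pair were averaged after turning (DKO-R over DKO-S, DOX over no DOX). limma 3.58.1 in R 4.3.3 (lmFit, eBayes) fitted 1 mean per comparison to the 7 pairs, with at least 2 residual degrees of freedom, and 1 mean to the dye means of 4 pairs. The prior had 6.11 degrees of freedom. Separate channels were normalised by loess (span 0.3) and Aquantile and fitted as 6 groups of 12 extracts. That fit takes the extracts as independent, though those of a culture with and without DOX share arrays. Their deviations from the group means correlated at 0.66 in DT40, 0.63 in DKO-R and 0.54 in DKO-S. The residual degrees of freedom behind its p-values and counts are thus overstated. Benjamini-Hochberg thresholds were 0.15 between lines and 0.05 otherwise. Intervals are at 95%. Precision is limited by how few arrays there are. The p-values of the log ratios rest on the spread of DOX responses between cultures, on the direct arrays too. Those of the Cy5 difference rest on the spread between pairs. The labels do not describe the independence of the cultures. In the separate channels each DKO-S group holds a culture read in Cy5 and a culture read in Cy3. Its spread thus includes the dye, and it enters the p-values of every line comparison. The fits were run on simulated data with independent noise, which leaves out the arrays that extracts share and so does not address that dependence.

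The members, lists and tests were chosen with earlier results of these data known. The 5 clones are described in full, the other clones by counts with the highest and lowest of a list, and the 3 most alike clones by r over the extracts. The alternatives were loess, block centring, no confidence filter or 0.60, the deposited table, fits without the dimmest 25% of clones, without 1 culture or without weak pairs, a replicate block, single direct arrays, other thresholds and, for the channels, other normalisations and inclusion of the direct arrays. CXCR4 by printed block was added after seeing the data.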

Additional observations from a re-analysis of the deposited data

Results flagged for a closer look

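Averaged over both orientations, the DOX response of CXCR4 was below 0 in both DKO-R cultures and above 0 in both DT40 cultures. Within each of these pairs the single orientations had opposite signs. DKO-R minus DT40 was -0.45 on the log2 scale and did not pass the test (adjusted p = 0.858 by limma). The difference comes mostly from culture B, with -0.63 in DKO-R and 0.20 in DT40, while the signs in culture A rest on values near 0, -0.04 in DKO-R and 0.04 in DT40.

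The log2 level of CXCR4 in DKO-R culture B without DOX, 11.74, stood apart from the 3 other DKO-R extracts, which lay between 10.99 and 11.11. That extract was also the highest of DKO-R in the CCL17-like clone (12.32), NK-lysin (12.72), CD274 (13.51) and NFKBIE (13.59). For a single clone, chance sets a sample of a group of 4 independent samples apart in about 1 of 20 groups. These 4 extracts differ in DOX and share arrays within a culture, so that rate need not hold for them. Whether the extract of culture B without DOX as a whole lay higher was not tested.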

How the results depend on the processing

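Of 512 recomputed values of the 5 clones, 439 kept their direction and their side of the threshold, 40 turned sign, 18 no longer passed and 15 newly passed. On a direct array alone each clone had the sign of the dye, and with a single array behind it no test is read from this. DKO-R over DKO-S was 2.08 for CXCR4, 2.10 for NK-lysin, 3.02 for CD274 and 3.16 for NFKBIE with DKO-R in Cy5, and -2.31 for the CCL17-like clone with DKO-R in Cy3. With each printed block centred on its own median, this ratio was -0.053 for the CCL17-like clone and 0.045 for NK-lysin. That setting gave -0.082 for the DOX response of CXCR4 in DT40, and CXCR4 from block 29 gave -0.16. The response of DKO-R minus DT40 turned to -0.037 for the CCL17-like clone and -0.024 for NFKBIE with block centring, to -0.065 for the CCL17-like clone and -0.11 for NFKBIE at a confidence of 0.60, and to -0.015 for NFKBIE with loess. With all DOX arrays and the mean of both dyes, DKO-R over DKO-S without DOX was -0.28 for the CCL17-like clone, -0.31 for CD274 and -0.025 for NFKBIE, with DOX 0.35 for the CCL17-like clone and 0.56 for CD274, and DKO-S over DT40 was 0.65 for NFKBIE. With direct and DOX arrays together DKO-R over DT40 was 0.11 for CXCR4. The cause was not tested.

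Without 1 culture of a line, which leaves that line 1 extract per group, assumed to vary like the others, DKO-R over DKO-S without DOX ran from -0.29 to 1.15 for CXCR4, -0.23 to 0.61 for the CCL17-like clone and -0.34 to 0.89 for CD274. With DOX it ran from -0.36 to 0.59 for CXCR4, -0.29 to 0.17 for the CCL17-like clone, -0.31 to 0.57 for NK-lysin, -0.80 to 0.47 for CD274 and -0.29 to 1.34 for NFKBIE. DKO-R over DT40 ran from -0.38 to 0.34 for CXCR4 and -0.20 to 0.48 for NK-lysin. DKO-S over DT40 ran from -1.16 to 0.27 for CXCR4, -0.12 to 1.11 for CD274 and -1.04 to 0.59 for NFKBIE.

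Counts over all clones moved more. The direct count (8) was 29 with block centring, 16 at a confidence of 0.60, 30 without the pairs of weak arrays, 5 at a threshold of 0.05, and 0 without the confidence filter and in the deposited table. It was 1366 and 1388 on the arrays with DKO-R in Cy3 and in Cy5 alone, and 0 to 30 without 1 culture. The DKO-S response (21 of 169 clones, none of the 5) was 3647 without the confidence filter, 2947 in the deposited table, 0 at a confidence of 0.60 (1 clone tested), 60 at a threshold of 0.15, and 0 to 519 without 1 culture. The Cy5 difference (303) was 702 without the confidence filter and 184 to 245 without 1 culture, and its excess on the direct arrays (13) was 71 with block centring, 74 without the filter, 34 at a confidence of 0.60, 62 in the deposited table and 0 to 31 without 1 culture. For DKO-R over DKO-S without DOX (209) it was 0 with the direct arrays included, 58 with the mean of both dyes and 19 to 1121 without 1 culture. With DOX (449) it was 208 with the mean of both dyes and 74 to 1479 without 1 culture. Against DT40 it was 666 for DKO-R (1557) and 834 for DKO-S (1444) with the mean of both dyes, and 345 to 2773 and 307 to 2276 without 1 culture.

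The culture letter is shared between lines only as a letter. Deviations of culture A from the group mean correlated from -0.09 to 0.66 between groups, the highest being of groups that share arrays. With the letter as a replicate block no call of the 5 clones changed, and the separate-channel counts were 275, 538, 1704 and 1601 in the order above. In the log ratios the replicate block left 160 clones to test on the direct arrays and in DKO-S, with 0 called and none of the 5 among them.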
